A study of Mus musculus with 8 samples.

Results

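The ovarian surface epithelium is the thin layer of mesothelial cells that covers the ovary, and 10 genes known for it or for simple epithelia were followed here in mouse ovarian follicles. They were chosen by name from the gene tables: the keratins Krt8, Krt18, Krt7 and Krt19, the uroplakins Upk1b and Upk3b, mesothelin (Msln), the mucin Muc16, the R-spondin receptor Lgr5 and the adhesion protein Epcam. Earlier results of these data were known when they were chosen, so contrasts of the 10 with all genes are a description. All 10 were present among the 21997 genes listed for every library, and all 10 passed the filter on low counts. RNA of single follicles of C57BL/6 mice was sequenced in 8 libraries, with 2 libraries in each of 4 groups. The groups were small antral follicles from transplanted female germline stem cells (SAF-TF), preantral follicles from the same source (PF-TF), small antral follicles of wild type mice (SAF-WT) and preantral follicles of wild type mice (PF-WT). The labels do not name the transplant hosts, the age of the mice or the cells of a TF follicle that came from the transplant. Whether the 2 follicles of a group had different donors is not stated either. Each p-value therefore measures only the spread between these follicles.

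Keratins form filaments from pairs of a type I chain (here Krt18 and Krt19) and a type II chain (here Krt8 and Krt7), and simple epithelia and mesothelia are known for these chains. Uroplakins are membrane proteins first described in the bladder lining, and Upk1b and Upk3b are also found on mesothelium. Mesothelin is a cell surface protein of mesothelium that binds Muc16, the CA125 antigen, and Lgr5 binds R-spondins and marks a proliferating part of the ovarian surface epithelium of the mouse. In the follicle itself, granulosa cells surround the oocyte inside a basement membrane, and theca and stroma lie outside it.

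Krt8, Krt18 and Krt7 lie together on chromosome 15 of GRCm38, where Krt8 spans 101996711 to 102004342 on the minus strand and Krt18 spans 102028216 to 102032026 on the plus strand, 23873 bases apart and pointing away from each other. Krt7 spans 101412403 to 101427806 of chromosome 15, and Krt19 spans 100140810 to 100145926 of chromosome 11. Upk1b lies on chromosome 16 at 38773182 to 38800203, Upk3b on chromosome 5 at 136038496 to 136044993, Msln on chromosome 17 at 25748613 to 25754378 and Epcam on chromosome 17 at 87635979 to 87651127. Muc16 lies on chromosome 9 at 18495445 to 18674821 and Lgr5 on chromosome 10 at 115450314 to 115587780. The spans above are those of RefSeq. In the GENCODE annotation, where Krt7 begins earlier, at 101411043, genes on the opposite strand overlap Krt8, Krt7, Muc16 and Lgr5, and the strand setting of the counting is not given in the sources used here, so reads of such pairs cannot be told apart.

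RefSeq promoter windows (GRCm38.p6) were at hand for 6 of the 10 genes, and the 250 bases before the start site were searched on both strands for 7 motifs. The E-box CACCTG was found in 4 of the 6 windows and in 17.2% of all 32851 windows of this length, and the GC box GGGCGG in 2 of the 6 and in 32.7% of all. The TEAD motif GGAATG was in 1 of the 6 (Upk3b) and in 12.6% of all. These letters were in 0 of the 6 for the TATA box TATAAA (12.4% of all), the AP-1 motif TGANTCA (6.75%), the grainyhead motif AACNGGTT (1.79%) and the zinc finger motif GCGTGGGNG (1.65%). The 4 windows with the E-box are shown because they belong to the keratin neighbours Krt8 and Krt18, whose levels differed in pattern, and to Krt7 and Epcam. They are chr15:102004343-102004592 (minus strand) for Krt8, chr15:102027966-102028215 (plus strand) for Krt18, chr15:101412153-101412402 (plus strand) for Krt7 and chr17:87635729-87635978 (plus strand) for Epcam, each printed 5′ to 3′ along the gene's strand, with capitals marking the E-box and the GC box in either orientation.
Krt8: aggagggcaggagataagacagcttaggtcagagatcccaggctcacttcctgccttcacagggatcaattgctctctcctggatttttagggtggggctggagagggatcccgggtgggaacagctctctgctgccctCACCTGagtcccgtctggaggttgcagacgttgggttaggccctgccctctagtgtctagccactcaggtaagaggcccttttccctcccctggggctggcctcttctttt
Krt18: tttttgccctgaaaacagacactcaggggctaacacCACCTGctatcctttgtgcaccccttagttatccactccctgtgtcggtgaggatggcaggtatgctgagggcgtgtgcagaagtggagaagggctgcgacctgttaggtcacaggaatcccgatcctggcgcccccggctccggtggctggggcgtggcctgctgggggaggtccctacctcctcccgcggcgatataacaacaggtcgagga
Krt7: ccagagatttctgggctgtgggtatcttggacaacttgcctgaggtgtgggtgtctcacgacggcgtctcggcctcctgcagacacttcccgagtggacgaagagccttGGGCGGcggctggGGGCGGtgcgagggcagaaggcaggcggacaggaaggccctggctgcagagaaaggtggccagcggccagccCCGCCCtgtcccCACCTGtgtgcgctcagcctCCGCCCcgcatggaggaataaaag
Epcam: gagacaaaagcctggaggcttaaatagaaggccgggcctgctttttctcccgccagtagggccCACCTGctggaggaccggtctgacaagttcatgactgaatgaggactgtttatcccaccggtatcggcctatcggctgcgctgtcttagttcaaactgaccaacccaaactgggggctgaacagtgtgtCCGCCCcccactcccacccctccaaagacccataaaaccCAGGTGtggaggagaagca
A match of letters is a description of the window and not a measured site.

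Total counts ran from 7656108 to 9805287 per library, so that a count of 0 allows up to 3 counts, or 0.301 to 0.393 CPM (counts scaled to library size with TMM factors), for counting error only. Every library held transcripts of oocyte and granulosa markers: the sum of 18 oocyte genes was 322 to 627 CPM in SAF-TF, 19400 to 24000 CPM in PF-TF, 802 to 3820 CPM in SAF-WT and 9240 to 10800 CPM in PF-WT. The sum of 12 granulosa genes ran from 1310 to 4600 CPM over the libraries. Values below are CPM of each library, replicate 1 first, and means are given with the SD over n = 2.

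**Figure D1:**
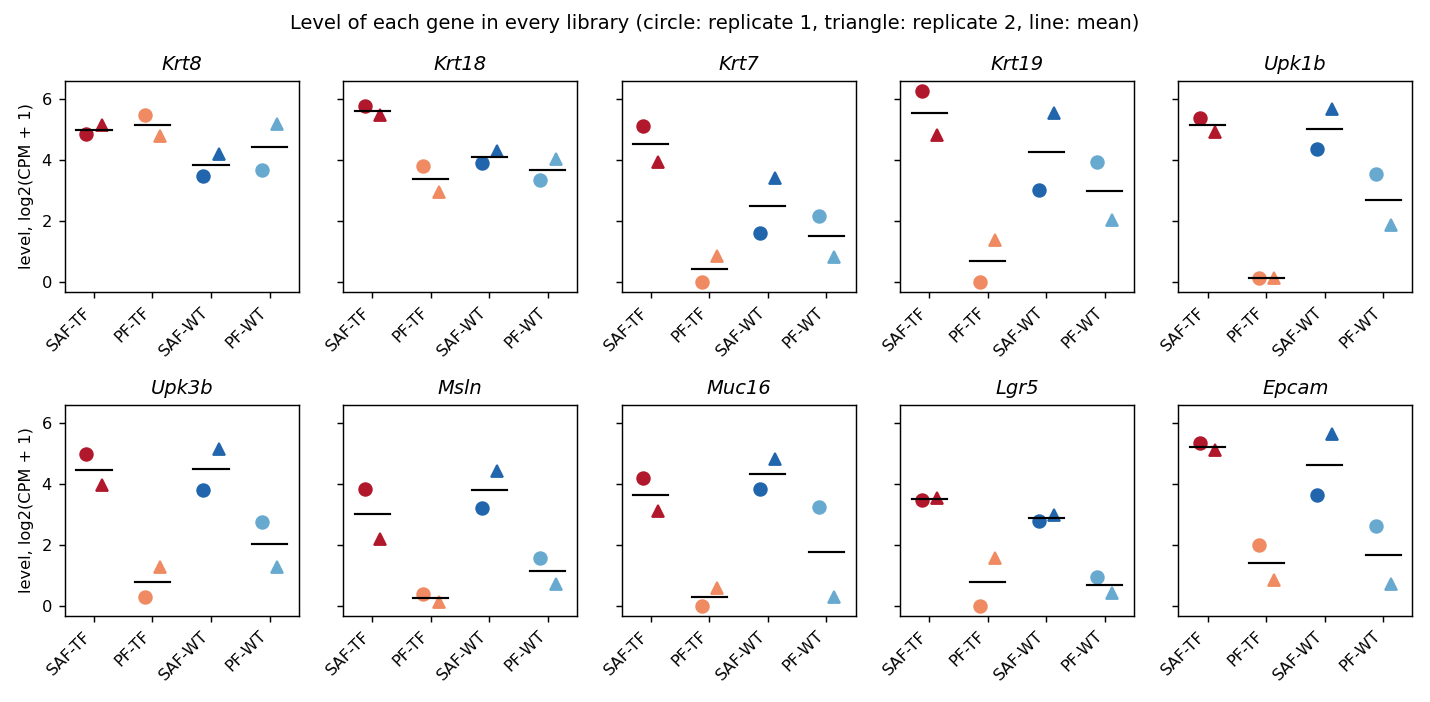
Level of each of the 10 genes in every library, as log2(CPM + 1) on the vertical axis, by group on the horizontal axis; circles are replicate 1, triangles replicate 2 and lines the mean of the pair. Krt8 and Krt18 were present in all libraries, whereas PF-TF replicate 1 had no count of Krt7, Krt19, Muc16 or Lgr5.

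Among follicles from transplanted FGSCs, 9 of the 10 genes were higher in small antral follicles, and Krt8 was the exception. This comparison sets the small antral against the preantral stage. These groups also differed in other markers, as the sum of 11 luteal genes was 30000 to 41700 CPM in SAF-TF, against 1770 to 3050 CPM in PF-TF. The part of a luteal change in these results was not tested. The keratin 19 gene averaged 51.8 ± 34.9 CPM in SAF-TF and 0.802 ± 1.13 CPM in PF-TF, and Upk1b averaged 35.2 ± 7.87 CPM in SAF-TF and 0.105 ± 0.00735 CPM in PF-TF. In the edgeR quasi-likelihood test with Benjamini-Hochberg adjustment over all genes, 43.2% of 17925 genes were called at adjusted p under 0.05, 18.2% higher and 25% lower in SAF-TF, and the median log2 fold change was 4.98 for the 10 genes and -0.08 for all genes. In these whole follicles, fewer cells of a type and less RNA per cell cannot be told apart.

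Krt8, the type II chain of simple epithelia, had 28.1 and 34.2 CPM in SAF-TF and 44 and 27 CPM in PF-TF. The groups overlapped, and the log2 fold change of -0.19 ± 0.49 did not pass (adjusted p = 0.784). Its partner Krt18 had 53.6 and 43.6 CPM in SAF-TF, against 13 and 6.81 CPM in PF-TF. The groups of Krt18 did not overlap, a description only, as the share of all genes without overlap is not given here. Krt18 rose by 2.29 ± 0.40 on the log2 scale (adjusted p = 0.00158).

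Krt7, the type II chain that often pairs with Krt19, had 33.9 and 14.4 CPM in SAF-TF, against 0 and 0.802 CPM in PF-TF (log2 fold change 5.82 ± 1.18, adjusted p = 0.00349). Krt19 had 76.5 and 27.1 CPM in SAF-TF, against 0 and 1.6 CPM in PF-TF (5.95 ± 1.30, adjusted p = 0.00522). Both keratins were far apart between the stages, and in both SAF-TF replicate 1 was the higher library of its pair. A Krt19 pseudogene, Gm15666, had 6 and 33 counts in SAF-TF and 0 and 39 counts in PF-TF, and the counting could split reads between it and Krt19.

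The uroplakin gene Upk1b had 40.7 and 29.6 CPM in SAF-TF, against 0.111 and 0.1 CPM in PF-TF, where each library held 1 count. With 634 counts in SAF-TF and 2 counts in PF-TF, the ratio was 335 with a 95% counting interval of 92.4 to 2770 (adjusted p = 2.03e-04 in the edgeR test). Upk3b had 30.3 and 14.6 CPM in SAF-TF, against 0.221 and 1.4 CPM in PF-TF (log2 fold change 4.74 ± 0.90, adjusted p = 0.00251). Neither uroplakin overlapped between the stages, again as a description only.

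Msln had 13.3 and 3.6 CPM in SAF-TF, against 0.332 and 0.1 CPM in PF-TF (log2 fold change 5.23 ± 1.01, adjusted p = 0.00262). Muc16, its binding partner, had 17.2 and 7.66 CPM in SAF-TF, against 0 and 0.501 CPM in PF-TF (5.51 ± 1.42, adjusted p = 0.0117). Both genes stood near the counting floor in PF-TF.

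Lgr5 had 10.2 and 10.6 CPM in SAF-TF, against 0 and 2 CPM in PF-TF (log2 fold change 3.33 ± 0.98, adjusted p = 0.0208). Its SAF-TF libraries were nearly level, unlike those of the mesothelial genes. The Lgr5 call was lost when either SAF-TF library was left out (3.36 and 3.31, adjusted p = 0.0626 and 0.0675). Without PF-TF replicate 2, the remaining PF-TF library held no count of Krt7, Krt19, Muc16 or Lgr5, so no fold is given, and the 4 genes passed with adjusted p from 4.37e-04 to 0.0159. Epcam, a homophilic adhesion protein of epithelia, had 39.3 and 33.6 CPM in SAF-TF, against 2.99 and 0.802 CPM in PF-TF (4.27 ± 0.95, adjusted p = 0.00547). In PF-TF, replicate 1 held more Epcam although it had no count of Krt7, Krt19, Muc16 or Lgr5.

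In wild type follicles, 5 of the 10 genes rose with stage: Upk1b, Upk3b, Msln, Lgr5 and Epcam. Over all genes, 35.1% were called by the same test, 12.7% higher and 22.5% lower in SAF-WT, and the median log2 fold change was 2.34 for the 10 genes and -0.20 for all genes. The 4 keratins and Muc16 did not pass. The 5 changes depended on single libraries. With 1 wild type library left out, the log2 fold change ran from 1.58 to 3.82 for Upk1b, 1.87 to 4.13 for Upk3b and 2.66 to 4.5 for Msln. It ran from 2.78 to 4.32 for Lgr5 and from 2 to 5.56 for Epcam. The 5 calls were lost in some of these fits, and each fit called fewer of all genes than the full fit. The group of 1 library is then assumed to vary like the others.

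Upk1b had 19.7 and 50.4 CPM in SAF-WT, against 10.6 and 2.66 CPM in PF-WT (log2 fold change 2.41 ± 0.62, adjusted p = 0.0145). Upk3b had 13.1 and 34.3 CPM in SAF-WT, against 5.77 and 1.44 CPM in PF-WT (2.73 ± 0.78, adjusted p = 0.0229). Neither overlapped, which is a description only without the share of all genes. In both, SAF-WT replicate 2 and PF-WT replicate 1 were the higher libraries. Without SAF-WT replicate 2 the Upk1b change was 1.58 (adjusted p = 0.112), and without PF-WT replicate 1 it was 3.82 (adjusted p = 0.00280) for Upk1b and 4.13 (adjusted p = 0.0119) for Upk3b.

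Msln had 8.25 and 20.3 CPM in SAF-WT, against 1.97 and 0.665 CPM in PF-WT (log2 fold change 3.45 ± 0.82, adjusted p = 0.0102). Epcam had 11.3 and 48.3 CPM in SAF-WT, against 5.11 and 0.665 CPM in PF-WT (3.39 ± 0.91, adjusted p = 0.0172), and its change was 2.00 without SAF-WT replicate 2 (adjusted p = 0.138) and 5.56 without PF-WT replicate 1 (adjusted p = 0.00671). Lgr5 had 5.96 and 6.86 CPM in SAF-WT, against 0.918 and 0.332 CPM in PF-WT (3.36 ± 1.05, adjusted p = 0.0324). As in SAF-TF, the Lgr5 libraries of SAF-WT lay close together, but its call was lost when any 1 of the 4 wild type libraries was left out, with adjusted p from 0.0515 to 0.148.

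Muc16 had 13.4 and 27.4 CPM in SAF-WT, against 8.39 and 0.222 CPM in PF-WT (log2 fold change 2.27 ± 1.07, adjusted p = 0.127). The PF-WT libraries of Muc16 held 64 and 2 counts, and without PF-WT replicate 1 it passed as higher in SAF-WT (adjusted p = 0.00424). Krt19 had 7.1 and 45.4 CPM in SAF-WT and 14.4 and 3.1 CPM in PF-WT, so that the stages overlapped (1.59 ± 1.02, adjusted p = 0.253). Krt7 overlapped as well, with 2.06 and 9.58 CPM in SAF-WT and 3.54 and 0.776 CPM in PF-WT (1.45 ± 0.98, adjusted p = 0.278).

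Krt18 had 14.1 and 18.8 CPM in SAF-WT and 9.31 and 15.3 CPM in PF-WT (log2 fold change 0.42 ± 0.39, adjusted p = 0.437). Krt8 had 10.2 and 17.5 CPM in SAF-WT and 11.8 and 35.5 CPM in PF-WT (-0.77 ± 0.50, adjusted p = 0.258). Both overlapped between the stages, and without PF-WT replicate 1 Krt8 passed as lower in SAF-WT (-1.25, adjusted p = 0.0487). In the authors' deposited table, 9 of the 10 genes passed in TF, against 40.7% of all genes listed, and 7 in WT, against 34.8%, at the same threshold, where Krt18 (FDR = 0.0381) and Muc16 (FDR = 7.97e-04) were the additional wild type genes. The authors' test is not given.

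**Figure D2:**
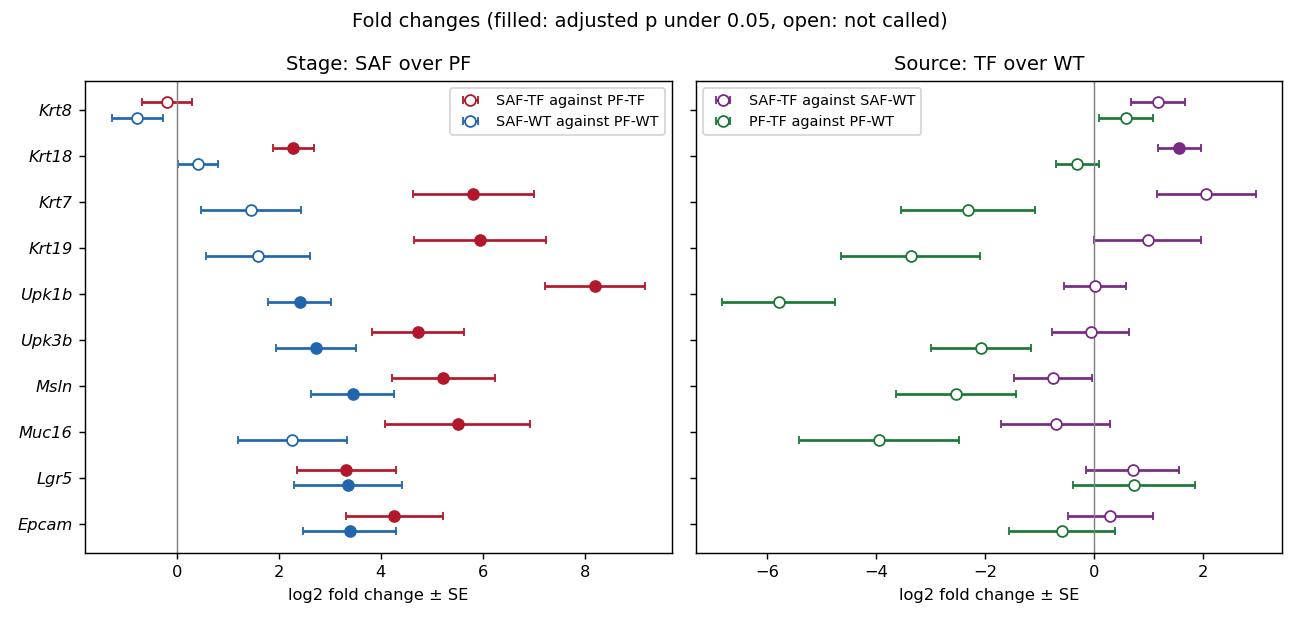
Log2 fold change with its SE (horizontal axis) for each gene, for small antral over preantral follicles in TF and WT (left) and for TF over WT at each stage (right); filled points passed adjusted p under 0.05. In TF the stage change was filled for all genes but Krt8, and of the source changes that of Krt18 in small antral follicles was filled.

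Whether the stage change itself differed between the sources was asked by the interaction of stage and source. None of the 10 genes passed this edgeR test, which called 0.904% of all genes, 0.658% with a larger and 0.245% with a smaller change in TF; 4 of the 10 had an unadjusted p under 0.05, against 15.4% of all genes, and DESeq2 called 2, Krt7 and Upk1b, against 4.8% of all genes. Upk1b came nearest, with a stage change larger in TF by 5.79 ± 1.23 on the log2 scale (adjusted p = 0.0653). It was followed by Krt18 (1.88 ± 0.55, adjusted p = 0.146), Krt7 (4.37 ± 1.52, adjusted p = 0.208) and Krt19 (4.35 ± 1.61, adjusted p = 0.235). For Lgr5 the difference of the stage changes was -0.03 with a 95% interval of -2.30 to 2.24, and for Epcam it was 0.88 with an interval of -1.92 to 3.68.

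Between small antral follicles of different source, edgeR called 9.96% of all genes, a share near that of the 10, with 4.61% higher and 5.34% lower in TF. Krt18 was the gene of the 10 that passed, and it was higher in TF. It averaged 48.6 ± 7.08 CPM in SAF-TF and 16.4 ± 3.34 CPM in SAF-WT (log2 fold change 1.56 ± 0.39, adjusted p = 0.0370). The call was lost without any 1 of the 4 small antral libraries (adjusted p from 0.0758 to 0.241) and with the replicate number as a block (adjusted p = 0.0648). Its partner Krt8 averaged 31.2 ± 4.33 CPM in SAF-TF and 13.9 ± 5.17 CPM in SAF-WT, without overlap (1.17 ± 0.50, adjusted p = 0.161). Krt7 did not overlap either, with 24.2 ± 13.8 CPM in SAF-TF and 5.82 ± 5.32 CPM in SAF-WT (2.05 ± 0.91, adjusted p = 0.174). Nor did Lgr5 (0.70 ± 0.86, adjusted p = 0.631). The share of all genes without overlap is not given here, so these separations are a description only.

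The means of Upk1b, Upk3b and Epcam lay close together in the small antral groups. Upk1b averaged 35.2 ± 7.87 CPM in SAF-TF and 35 ± 21.7 CPM in SAF-WT, a log2 difference of 0.01 with a 95% interval of -1.28 to 1.29. Upk3b averaged 22.5 ± 11.1 CPM in SAF-TF and 23.7 ± 15 CPM in SAF-WT (-0.07, interval -1.65 to 1.5), and Epcam 36.4 ± 4.07 CPM in SAF-TF and 29.8 ± 26.1 CPM in SAF-WT (0.29, interval -1.46 to 2.04). Msln averaged 8.45 ± 6.85 CPM in SAF-TF and 14.3 ± 8.56 CPM in SAF-WT, and Muc16 12.5 ± 6.78 CPM in SAF-TF and 20.4 ± 9.93 CPM in SAF-WT. The intervals for Upk1b, Upk3b and Epcam reach beyond 2-fold in both directions.

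Between preantral follicles of different source, none of the 10 genes passed in edgeR, which called 0.218% of all genes, 0.0669% higher and 0.151% lower in PF-TF; 5 of the 10 had an unadjusted p under 0.05, against 20.7% of all genes, and DESeq2 called 1, Upk1b, against 8.35% of all genes, a share near that of the 10. The median log2 fold change of the 10 genes was -2.20, against -0.03 for all genes. Upk1b, with 2 counts in PF-TF and 105 counts in PF-WT, had a ratio of 0.0167 with a counting interval of 0.00199 to 0.0617 (adjusted p = 0.0580). Krt19 averaged 0.802 ± 1.13 CPM in PF-TF and 8.76 ± 8 CPM in PF-WT (-3.37 ± 1.28, adjusted p = 0.176), and Upk3b averaged 0.812 ± 0.836 CPM in PF-TF and 3.6 ± 3.06 CPM in PF-WT (-2.08 ± 0.92, adjusted p = 0.235). The libraries of Krt19, Upk1b, Upk3b and Msln did not overlap and were lower in PF-TF, but none of these 4 genes passed. The share of all genes without overlap is not given here, so this is a description only. The other genes of the 10 overlapped, among them Krt8 (0.58 ± 0.49) and Krt18 (-0.31 ± 0.40). Each source has its own deposited table, and a difference between tables cannot be told apart from one between sources.

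Libraries of the same group often differed in these genes. In SAF-WT, replicate 2 was the higher library for 10 of the 10 genes, against 48.3% of all genes tested, and 7 of the 10 differed by more than 2-fold, against 19.5% of all genes. In PF-WT, replicate 1 was higher for 8 of the 10 genes, against 50% of all genes, the others being Krt8 and Krt18. There 9 of the 10 differed by more than 2-fold, against 23.9% of all genes. In SAF-TF, replicate 1 was higher for 8 genes, with 3.69-fold for Msln, 2.82-fold for Krt19 and 2.35-fold for Krt7, whereas Krt8 and Lgr5 were higher in replicate 2; 53.3% of all genes were higher in replicate 1, and 5 of the 10 differed by more than 2-fold, against 17.7% of all genes. In PF-TF each library was the higher one for 5 genes, where 47.3% of all genes were higher in replicate 1 and 50.9% in replicate 2. There 7 of the 10 differed by more than 2-fold, against 23% of all genes. Several of these rest on few counts: Msln had 3 and 1 in PF-TF, Muc16 0 and 5, and Krt7 0 and 8. The shares over all genes are not matched for level, and the part of counting error was not tested.

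Some lists of other cell markers had the same higher library as the 10 genes and some the opposite one. SAF-WT replicate 2 had the larger sum of 18 oocyte genes, 3820 CPM against 802 CPM in replicate 1, with none of the 18 genes at 0 in either, but the smaller sum of 13 stroma and theca genes, 6810 CPM against 9710 CPM. In SAF-TF, replicate 1 had the larger stroma and theca sum, 2270 CPM against 1580 CPM in replicate 2, but the smaller sum of 12 macrophage genes, 1270 CPM against 1670 CPM. PF-WT replicate 1 had the larger stroma and theca sum, 613 CPM against 277 CPM in replicate 2, and the larger macrophage sum, 587 CPM against 121 CPM, again with none at 0. By stage, the stroma and theca sum was 1580 to 2270 CPM in SAF-TF, against 62.4 to 158 CPM in PF-TF, and 6810 to 9710 CPM in SAF-WT, against 277 to 613 CPM in PF-WT. The macrophage sum was 1270 to 1670 CPM in SAF-TF, against 74.2 to 102 CPM in PF-TF, where 1 of the 12 genes was at 0 in replicate 2, and 11 of the 12 rose. It was 310 to 397 CPM in SAF-WT and 121 to 587 CPM in PF-WT, where the stages overlapped and 1 of the 12 rose. The sum of 11 luteal genes was 30000 to 41700 CPM in SAF-TF, against 1770 to 3050 CPM in PF-TF. It was 3920 to 4640 CPM in SAF-WT, against 950 to 1190 CPM in PF-WT. All 11 rose in TF and 6 rose in WT, and all 11 were higher in SAF-TF than in SAF-WT. The part of these other cells in the results was not tested.

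**Figure D3:**
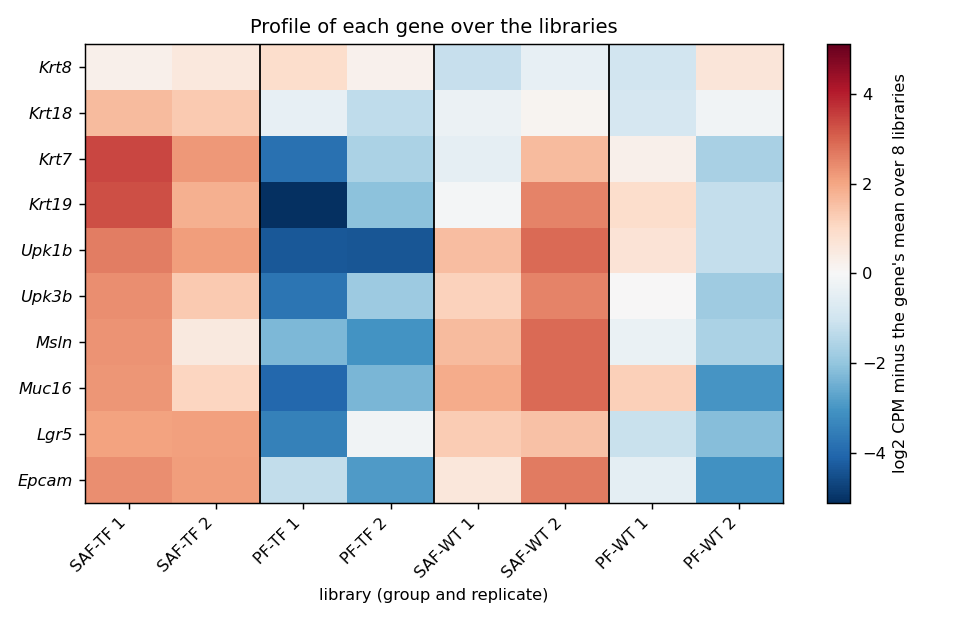
Log2 CPM of each gene (rows) in each library (columns), minus the mean of that gene over the 8 libraries, in colour from blue (low) to red (high). Krt8 and Krt18 varied least, and all 10 genes, these 2 among them, were higher in SAF-WT replicate 2 than in SAF-WT replicate 1.

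Likeness between genes was measured as the root mean square difference of these centred log2 profiles over the 8 libraries, which are the same for every gene and so share depth and follicles. Of the pairs among the 10 genes, Krt7 and Krt19 were closest (0.68), followed by Upk3b with Muc16 (0.70) and Upk3b with Msln (0.77). Krt8 and Krt18 differed by 1.01, and Krt8 was farthest from Upk1b (3.18). Among the other genes with at least 10 CPM in some group, Clp1 and Letmd1 were closest to Krt8 (0.20 each), and Osbpl3 to Krt18 (0.25). The closest were Clic3 for Krt7 (0.47), Ifit3 for Krt19 (0.73), Prr15l for Upk1b (0.55), Mob3b for Upk3b (0.34), Pkhd1l1 for Msln (0.34), Icam2 for Muc16 (0.51), Cst8 for Lgr5 (0.40) and Klk1 for Epcam (0.37).

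Between genes, levels were compared as CPM per kilobase of the longest GENCODE transcript, from 1437 bases for Krt18 to 25437 bases for Muc16. The longest transcript need not be the one present in these follicles, so the order of genes may depend on that choice. In SAF-TF, Krt18 (33.8 ± 4.93) and Krt19 (32.9 ± 22.2) led without differing beyond their spread, followed by Upk1b (18.6 ± 4.15), Epcam (17.9 ± 2.00) and Krt8 (15.9 ± 2.21). In PF-TF, Krt8 led with 18.1 ± 6.16 CPM per kilobase and Krt18 followed with 6.91 ± 3.07, while the other 8 genes were all under 1, from 0.00985 for Muc16 to 0.928 for Epcam. In SAF-WT the order began with Upk1b (18.5 ± 11.5), Krt19 (16.7 ± 17.2), Epcam (14.6 ± 12.8) and Krt18 (11.4 ± 2.32), which overlapped. In PF-WT it began with Krt8 (12.1 ± 8.54), Krt18 (8.56 ± 2.94) and Krt19 (5.56 ± 5.08), which overlapped: Krt19 led in replicate 1 with 9.15, and Krt8 in replicate 2 with 18.1.

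The balance of the partners Krt8 and Krt18 is a ratio that was chosen after its values were seen and is given as a description. Per transcript length, Krt8 over Krt18 was 0.385 and 0.577 in SAF-TF, against 2.48 and 2.90 in PF-TF. It was 0.531 and 0.683 in SAF-WT, against 0.930 and 1.70 in PF-WT. The ratio was thus lower in each small antral library than in each preantral library. A Krt8 pseudogene held 0 to 5 counts per library.

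Other genes of the surface epithelium and mesothelium rose in part. For this list and those that follow, the shares over all genes were 18.2% higher and 25% lower in TF. In WT they were 12.7% higher and 22.5% lower. Of 19 such genes, 10 rose and 3 fell in SAF-TF against PF-TF, with a median log2 fold change of 1.59, and 6 rose and 2 fell in SAF-WT against PF-WT, with a median of 0.02. Nkain4 had 30.8 and 14.8 CPM in SAF-TF, against 0 and 0.701 CPM in PF-TF (5.91 ± 0.92, adjusted p = 8.39e-04), and it was higher in SAF-WT by 3.33 ± 0.74 (adjusted p = 0.00732). Aldh1a1, an enzyme of retinoic acid synthesis, averaged 1450 ± 628 CPM in SAF-TF and 88.6 ± 30.0 CPM in PF-TF (4.03 ± 0.50, adjusted p = 2.42e-04). It averaged 704 ± 155 CPM in SAF-WT and 127 ± 78.3 CPM in PF-WT (2.47 ± 0.47, adjusted p = 0.00332). The matrix gene Efemp1 rose by 5.85 ± 0.87 in TF and 4.39 ± 0.80 in WT (adjusted p = 6.69e-04 and 0.00283), and Gpm6a rose by 1.66 ± 0.38 in TF and 1.77 ± 0.38 in WT (adjusted p = 0.00667 and 0.00654). Nkain4 and Efemp1 had no count in PF-TF replicate 1. Tgfb2, a growth factor gene, fell by 4.46 in TF and by 4.62 in WT on the log2 scale (adjusted p = 2.11e-05 and 4.58e-05). Bnc1, a zinc finger gene named after its values were seen, also fell (-3.28 ± 0.59 in TF, adjusted p = 0.00186, and -2.70 ± 0.59 in WT, adjusted p = 0.00694, or -4.33 without SAF-WT replicate 2).

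Most of the other tested keratins fell. Of 46 keratins listed, 19 were in the tables and 12 were tested, of which 8 fell in SAF-TF against PF-TF and 7 fell in SAF-WT against PF-WT, with medians of -3.97 and -5.03. In TF, 5 of them fell when either SAF-TF library was left out. Krt12, known from the corneal epithelium, averaged 0.611 ± 0.0678 CPM in SAF-TF and 32.4 ± 4.73 CPM in PF-TF (-5.70 ± 0.43, adjusted p = 2.34e-05). It averaged 1.46 ± 0.280 CPM in SAF-WT and 49.1 ± 15.1 CPM in PF-WT (-5.06 ± 0.40, adjusted p = 5.26e-05). Krt73, known from hair follicles, had no count in either small antral group; set against 3 counts per library, it was at least 9.16-fold lower in TF and at least 13.6-fold lower in WT. Of 6 tested relatives among uroplakins, mucins and mesothelin, 4 fell in each source, with medians of -3.62 in TF and -4.14 in WT. Upk3bl averaged 0.387 ± 0.229 CPM in SAF-TF and 7.88 ± 1.61 CPM in PF-TF (-4.29 ± 0.89, adjusted p = 0.00382), and the mesothelin-like gene Mslnl averaged 0.717 ± 0.695 CPM in SAF-TF and 8.95 ± 5.01 CPM in PF-TF (-3.61 ± 0.77, adjusted p = 0.00441).

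Many epithelial junction and polarity genes fell as well. Of 22 tested, 1 rose and 12 fell in each source, with medians of -2.30 in TF and -1.94 in WT, and 7 fell in WT without SAF-WT replicate 1. Ehf, an epithelial transcription factor gene, averaged 5.77 ± 1.94 CPM in SAF-TF and 144 ± 32.1 CPM in PF-TF (-4.63 ± 0.36, adjusted p = 2.55e-05). It averaged 4.07 ± 0.731 CPM in SAF-WT and 243 ± 79.2 CPM in PF-WT (-5.89 ± 0.39, adjusted p = 4.49e-05). The splicing regulator gene Esrp1 averaged 2.1 ± 1.54 CPM in SAF-TF and 118 ± 50.7 CPM in PF-TF (-5.80 ± 0.65, adjusted p = 1.44e-04). The tight junction gene Cldn4 averaged 26.2 ± 0.786 CPM in PF-TF and fell in SAF-TF (-6.79 ± 0.71, adjusted p = 9.95e-05). SAF-TF held 4 counts of Cldn4 in all, with 0.22 and 0.225 CPM, under the counting floor of 0.301 to 0.393 CPM. Cldn1, another claudin gene, averaged 89 ± 4 CPM in SAF-WT and 4.12 ± 0.659 CPM in PF-WT (4.43 ± 0.58, adjusted p = 5.02e-04). It also rose in TF, with 6.81 and 5.07 CPM in SAF-TF, against 0 and 1 CPM in PF-TF (3.48 ± 0.70, adjusted p = 0.00336). It was lower in SAF-TF than in SAF-WT (-3.90 ± 0.56, adjusted p = 0.00557), a call lost without SAF-TF replicate 1 (adjusted p = 0.0572). These lists moved in the direction of the oocyte genes, of which 17 of 18 fell in TF and 11 of 18 in WT; the part of the oocyte in them was not tested.

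Filament partners and Wnt partners were mixed. Over all genes, 18.2% were called higher and 25% lower in TF, and 12.7% and 22.5% in WT. The counts of the Wnt partners in TF were near these shares and are a description only. Those of the desmosome list in WT were near or under them. Of 13 tested genes of desmosomes and filament linkers, 5 rose and 1 fell in TF, where 2 rose if replicate 1 of SAF-TF or replicate 1 of PF-TF was left out, and 3 if replicate 2 of SAF-TF was. In WT 1 rose and 2 fell, or 1 fell without SAF-WT replicate 1 or without PF-WT replicate 2. The desmoplakin gene Dsp, which ties keratins to desmosomes, rose by 1.10 ± 0.31 in TF (adjusted p = 0.0181) and fell in WT (-1.51 ± 0.32, adjusted p = 0.00544), and its interaction of stage and source passed (2.61 ± 0.44, adjusted p = 0.0313). The TF call was lost without either SAF-TF library or PF-TF replicate 1 (adjusted p from 0.0520 to 0.101), and the interaction without any 1 of those 3 or either SAF-WT library (adjusted p from 0.0569 to 0.135). The intermediate filament gene Vim rose by 3.13 ± 0.39 in TF and by 2.27 ± 0.37 in WT (adjusted p = 2.42e-04 and 0.00166). Of 18 partners and targets of Lgr5 in Wnt signalling, 4 rose and 4 fell in TF, and 3 rose and 6 fell in WT. In both sources these counts could be smaller when a library was left out. Among the genes of this list that rose in TF was Fzd1, with 159 counts in SAF-TF and 1 count in PF-TF (adjusted p = 1.65e-04 in the edgeR test). Rspo2, which encodes a ligand of Lgr5, averaged 3.33 ± 0.255 CPM in SAF-TF and 190 ± 26.0 CPM in PF-TF (-5.82 ± 0.37, adjusted p = 1.78e-05), and 8.25 ± 3.73 CPM in SAF-WT and 151 ± 30.8 CPM in PF-WT (-4.19 ± 0.34, adjusted p = 5.78e-05). The Wnt target Axin2 fell in TF (-1.78 ± 0.43, adjusted p = 0.00871, lost without either SAF-TF library at 0.0604 and 0.0576) and in WT (-2.55 ± 0.47, adjusted p = 0.00304).

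**Figure D4:**
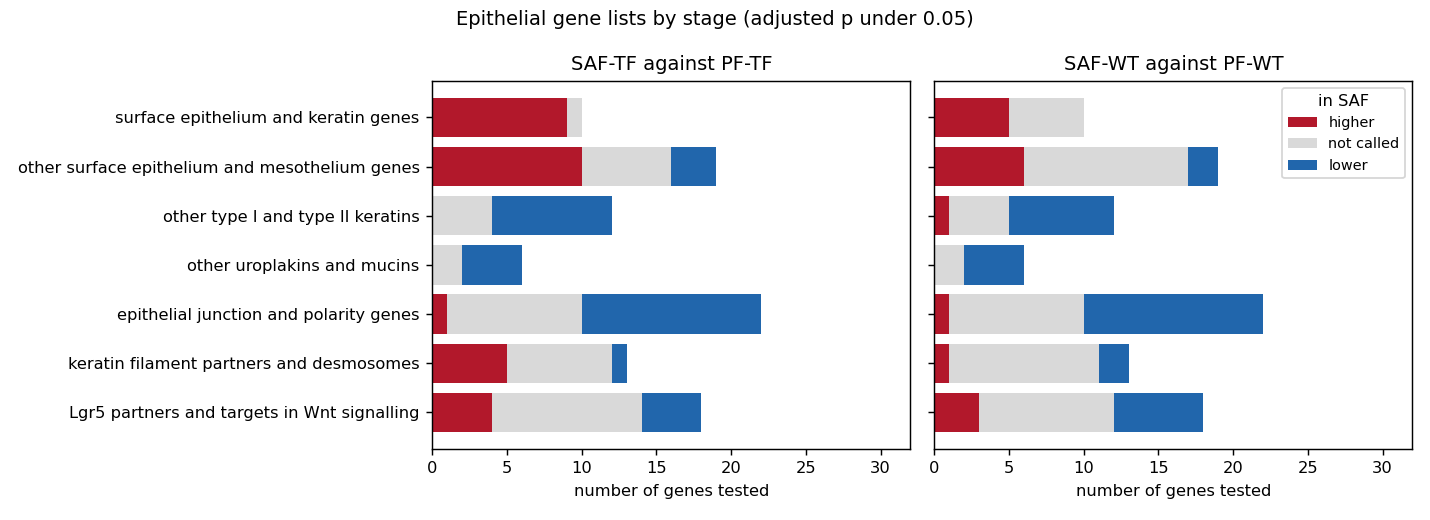
Number of tested genes of each list (horizontal axis) that were higher, not called or lower in small antral than in preantral follicles, in TF (left) and WT (right), at adjusted p under 0.05. The 10 genes followed here were called higher in 9 cases in TF and 5 in WT, whereas 8 and 7 of the 12 other keratins were lower.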

How the data were processed

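Polyadenylated RNA of single mouse follicles, separated with a needle, was amplified (SMARTer Ultra Low Input kit), per the labels' protocols. The submitters' processing notes name HISAT2 2.0.1 and GRCm38, and no counter, annotation or strand setting is given. Per the file headers, the deposited tables hold raw counts per gene and library. The authors' normalized signal, the mean of a group after 1 scale factor per library, served to recover those factors. The authors' log2 ratio and FDR (an adjusted p-value) were copied for the 10 genes.

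Counts of the 21997 genes in both tables were fitted with edgeR 4.0.16 in R 4.3.3: TMM factors, filterByExpr (min.count 10, min.total.count 15; 17925 genes), 1 mean per group, quasi-likelihood F test, Benjamini-Hochberg adjustment over all genes, threshold 0.05. Left out were 132 genes listed for TF and 141 listed for WT only. A standard error is the log2 fold change over the square root of F. Log2 CPM profiles used a prior count of 2. A self-test on simulated data with known changes was run.

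The 10 genes and the accompanying lists were chosen with earlier results of these data known. Named were all 10, up to 4 genes per list with the smallest p in each stage and source contrast, and the closest profiles.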

Additional observations from a re-analysis of the deposited data

How the results depend on the processing

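Counts of called genes among the 10 stayed at 9 (SAF-TF against PF-TF) and 5 (SAF-WT against PF-WT) with RLE factors, without a low-count filter, with a filter at 10 CPM, with DESeq2 1.42.0, with only the groups compared, with the replicate block and with the authors' scale factors, added after seeing the data. Those factors moved the median log2 fold change of all genes to 0.27 in TF and 0.14 in WT, against -0.08 and -0.20, and RLE moved it to 0.03 and -0.04; with the authors' factors 56.2% of calls in TF and 53.5% in WT were higher, against 42.1% and 36.0%. For PF-TF against PF-WT the count was 0, and 1 (Upk1b) without a filter or with DESeq2. For SAF-TF against SAF-WT it was 1, and 3 with only the groups compared and 0 with the replicate block. For the interaction it was 0, and 1 without a filter and 2 with DESeq2. Leaving out each library in turn gave 8 to 9 (SAF-TF against PF-TF), 0 to 6 (SAF-WT against PF-WT, where the 6 are 5 higher and Krt8 lower), 0 to 2 (PF-TF against PF-WT), 0 to 0 (SAF-TF against SAF-WT) and 0 to 1 (interaction). The cause was not tested. Over all genes, the calls of PF-TF against PF-WT numbered 39, and 26 with RLE, 207 without a filter, 1322 with DESeq2, 3 with only the groups compared, 6 with the replicate block and 1 to 935 with a library left out. Those of SAF-TF against SAF-WT numbered 1785, and 2849 with DESeq2, 3921 with only the groups compared, 1069 with the block and 143 to 1007 with a library left out. Those of the interaction numbered 162, and 810 with DESeq2, 74 with the block and 28 to 343 with a library left out. The stage calls numbered 7744 in TF and 6294 in WT, and 5136 to 7336 and 3075 to 5155 with a library left out.

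Values that changed sign, none of them called in the full fit, were these. Krt8 in SAF-TF against PF-TF was 0.18 with the authors' scale factors. Upk1b in SAF-TF against SAF-WT was -0.05 with RLE, -0.05 with DESeq2 and -0.07 with the replicate block. The Lgr5 interaction was 0.18 with the replicate block. With a library left out, SAF-TF against PF-TF ran from -0.35 to 0.32 for Krt8. SAF-WT against PF-WT ran from -1.25 to 0.23 for Krt8, -0.04 to 2.99 for Krt7 and -0.29 to 3.18 for Krt19. PF-TF against PF-WT ran from -0.85 to 0.09 for Krt18, -8.22 to 0.26 for Muc16, -5.42 to 1.67 for Lgr5 and -1.84 to 1.51 for Epcam. SAF-TF against SAF-WT ran from -0.52 to 0.83 for Upk1b, -0.69 to 0.78 for Upk3b, -1.98 to 0.03 for Msln and -0.41 to 1.68 for Epcam. Fits against a lone library at 0 depend on the prior count. The interaction ran from -0.42 to 1.19 for Krt8, -0.93 to 7.56 for Muc16, -0.92 to 6.17 for Lgr5 and -1.16 to 2.27 for Epcam. Same-numbered libraries deviated together at r = -0.12 to 0.11 across genes, so the numbers were not treated as pairs; apart from Krt18 in SAF-TF against SAF-WT, the replicate block changed no call of the 10 genes.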

Other observations

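Among the keratins outside the 10, Krt10, a chain of stratified epithelia, went against its list in wild type. It averaged 81 ± 0.526 CPM in SAF-WT and 42.8 ± 7.37 CPM in PF-WT (edgeR log2 fold change 0.92 ± 0.25, adjusted p = 0.0168; n = 2 libraries each), and that call was lost without either SAF-WT library or without PF-WT replicate 2. It averaged 32.9 ± 3.26 CPM in SAF-TF and was lower there than in SAF-WT (-1.30 ± 0.25, adjusted p = 0.0155), a call lost without any 1 of the 4 small antral libraries (adjusted p from 0.0505 to 0.159). Slpi, a secreted protease inhibitor of epithelia, averaged 0.150 ± 0.213 CPM in PF-TF, from 3 counts, and 16.6 ± 17 CPM in PF-WT. The difference did not pass in edgeR (log2 fold change -6.59 ± 1.22, adjusted p = 0.0580). In PF-WT, replicate 1 had 28.6 CPM and replicate 2 had 4.54 CPM, the same order as for 8 of the 10 genes and for 50% of all genes tested.

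The sum of 6 markers of the oviduct epithelium was 18.2 and 20 CPM in SAF-TF, 44.5 and 22.1 CPM in PF-TF, 17.9 and 27.7 CPM in SAF-WT and 19.5 and 38.8 CPM in PF-WT. Emx2 made up most of that sum, with 12.5 and 16.4 CPM in SAF-TF, 40.5 and 18.3 CPM in PF-TF, 11 and 15.3 CPM in SAF-WT and 11.7 and 35.8 CPM in PF-WT, and it did not pass between the stages (adjusted p = 0.153 in TF and 0.244 in WT). Of 5 tested, 1 rose and 1 fell in TF, and 1 fell in WT, all at low counts. Pax2 fell in edgeR, with 1 count in SAF-TF and 39 in PF-TF (adjusted p = 0.0247). It had no count in SAF-WT and 28 in PF-WT (adjusted p = 0.0207). Sox17 rose in TF, with 35 counts in SAF-TF and 2 in PF-TF (4.04 ± 1.38, adjusted p = 0.0386). Pax8 was at 0.11 and 0 CPM in SAF-TF, 0 and 0 CPM in PF-TF, 0.573 and 0.355 CPM in SAF-WT and 1.18 and 0 CPM in PF-WT, against a floor of 0.301 to 0.393 CPM.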
